A study of Mus musculus with 9 samples.

Results

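The interferon regulatory factors (IRFs) are a family of transcription factors that share a DNA-binding domain. IRF3, IRF5 and IRF7 relay signals from Toll-like and cytosolic nucleic acid receptors to the genes of type I interferons and inflammatory cytokines. IRF9 is part of the complex that answers type I interferon, IRF1 and IRF2 act as an activator and a competitor on shared sites, and IRF8 is needed for the myeloid lineage. IRF4 is best known from plasma cells, germinal centre B cells, effector T cells and alternatively activated macrophages. Roquin proteins bind stem-loops in the 3' untranslated region (3' UTR) of mRNAs and direct them to decay.

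The members were the rows of the deposited table whose symbol was Irf1, Irf2, Irf3, Irf4, Irf5, Irf7, Irf8 or Irf9, 8 genes of 20467 in all. Each symbol occurred once, and the 8 members passed the filter on low counts that left 9567 genes for testing. The table gives reads per gene in 9 libraries from RAW264.7, a mouse macrophage-like line, with 3 libraries in each of 3 groups. Before lysis the cells of every group had received lipopolysaccharide (LPS), a bacterial ligand of Toll-like receptor 4, at 100 ng/ml for 2 h, so every comparison is among LPS-treated cells. The first group is RNA recovered by Roquin immunoprecipitation (Roquin IP) with the rabbit polyclonal antibodies 514A and 515A from Bethyl on protein A/G beads, the second is RNA recovered with such beads and no antibody (control IP, here the bead control), and the third is RNA of the lysate before any IP (input). The bead control therefore has no control antibody, and all results come from this cell line.

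Library totals ran from 3547517 to 12975767 reads in Roquin IP, from 2929537 to 8466096 in the bead control and from 1799390 to 2122288 in the input. Levels are counts per 1000000 reads (CPM), with totals scaled by the trimmed mean of M values (TMM), so that 1 CPM stood for 2.02 to 2.53 counts in the input and up to 11.7 counts in bead control 3. Tnf, the mRNA of a main inflammatory cytokine, took 17.6% to 27.2% of the reads in Roquin IP and at most 0.516% elsewhere. Lars2 took 15.0% to 23.9% in Roquin IP and 28.6% to 41.5% in the bead control and input. Ccl4 took 7.15% to 15.2% in Roquin IP and at most 0.345% elsewhere. Of the 12 listed macrophage markers 10 were in the table, and they summed to 1179 to 1944 CPM in Roquin IP, 951 to 1490 in the bead control and 1110 to 1643 in the input, with Marco at 0. Of the markers of lymphoid cells, in which Irf4 is best known, Ms4a1, Pax5, Blk, Ebf1, Igj, Cd3e, Cd3g, Cd4, Cd8a and Zap70 had 0 counts in all 9 libraries. Others were detected: the plasma cell marker Sdc1 had 102 reads in Roquin IP, 77 in the bead control and 19 in the input, the T cell kinase gene Lck had 41, 62 and 29, and Cd28 had 11, 6 and 32. The summed level of the 10 B cell and plasma cell markers in the table was 4.16 to 6.66 CPM in Roquin IP, 2.43 to 4.80 in the bead control and 0.407 to 4.95 in the input, and that of the 8 T cell markers was 0.966 to 5.44, 1.72 to 11.2 and 2.48 to 13.8 CPM. All 9 libraries came from the RAW264.7 line. Neither the source of these marker reads nor their bearing on the Irf4 level of the input was tested.

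Irf4 was higher in Roquin IP than in both other groups, and no other member passed the test in any comparison. Its reads numbered 870, 2161 and 4943 in Roquin IP 1, 2 and 3. In the bead control they numbered 1, 12 and 43, and in the input 8, 6 and 21. On the CPM scale these were 364.2, 272.7 and 477.4 in Roquin IP against 0.304, 2.35 and 3.69 in the bead control and 3.25, 2.37 and 10.4 in the input. Every Roquin IP library lay far above all 6 others, and the bead control overlapped the input. A position above all 3 libraries of the other group, by any margin, was found for 10.7% of all genes against the bead control. Against the input it was found for 16.5%. In the bulk input, few cells with the mRNA cannot be told apart from little mRNA in each cell.

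The level of Irf4 was 371.5 ± 102.6 CPM in Roquin IP (SD, n = 3), 2.11 ± 1.70 in the bead control and 5.34 ± 4.40 in the input. edgeR's quasi-likelihood test put it 152.1-fold above the bead control (log2 fold change 7.25, SE 0.62, 95% interval 5.92 to 8.58, Benjamini-Hochberg adjusted p = 3.78e-06). It ranked 3 of 9567 genes by this fold change. Against the input it was 71.6-fold higher (log2 6.16, SE 0.60, interval 4.87 to 7.46, edgeR adjusted p = 1.33e-05) and ranked 12. Both comparisons use the same Roquin IP libraries. The bead control and input did not differ at a detectable level for Irf4 (log2 -1.09, interval -2.41 to 0.24, edgeR adjusted p = 0.34).

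The low counts outside Roquin IP set the precision of these folds. Taken by replicate number, Irf4 was 116.2-fold higher in Roquin IP 2 than in bead control 2, with a counting interval of 66.4 to 225.2. The pair numbered 3 gave 129.4-fold (95.9 to 179.05). The pair numbered 1 rested on a single control read, and its ratio of 1198 had a counting interval of 214.5 to 47375. Against the input of the same number the ratios were 112.0, 115.1 and 45.9 for numbers 1, 2 and 3. The smallest of these belongs to input 3, which held the most Irf4 of the input libraries, and without that library the log2 fold change over the input was 7.05 (edgeR adjusted p = 5.81e-05). Without bead control 3 the log2 fold change over the bead control was 7.95 (adjusted p = 8.86e-06).

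**Figure D1:**
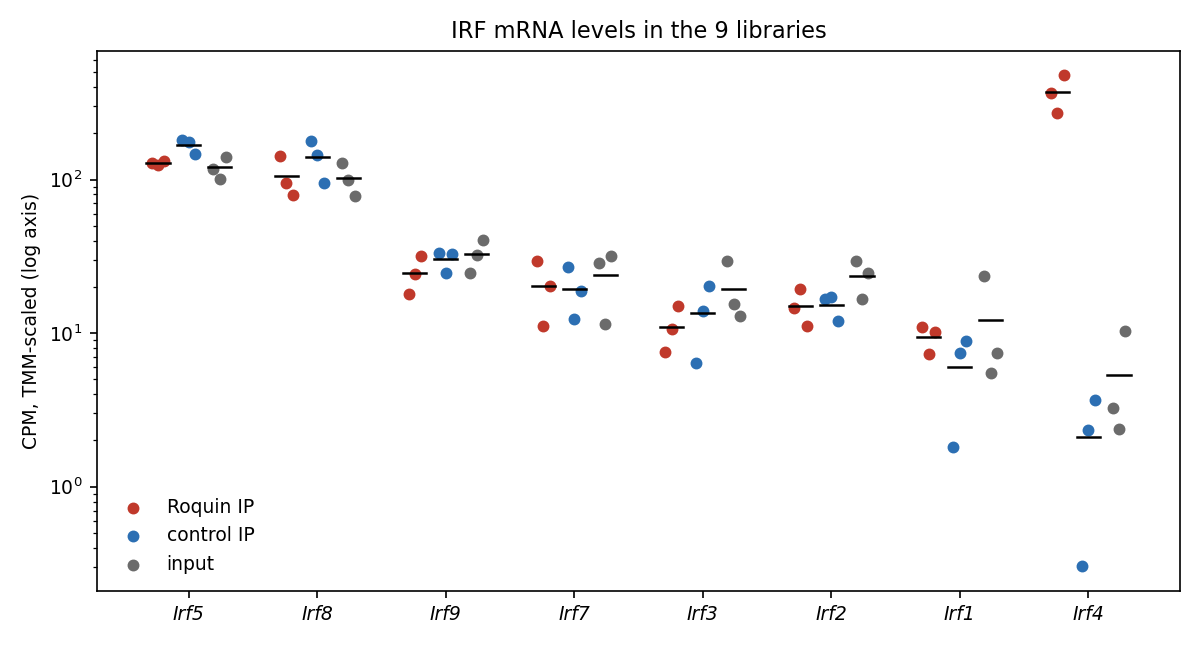
Level of each IRF mRNA in every library, in TMM-scaled CPM on a log axis; points are libraries, short bars are means of 3 libraries, and genes are ordered by their input level per kilobase. Irf4 stands at 272.7 to 477.4 CPM in Roquin IP and at 0.304 to 10.4 CPM in the other 6 libraries, while the groups of most other members lie on top of each other.

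Of the 8 members, 1 was called higher in Roquin IP than in the bead control and 0 lower. Of all genes tested, 3.76% were called higher and 0% lower. At an unadjusted p under 0.05 edgeR put 204 genes lower, and at an adjusted p under 0.05 DESeq2 put 4 lower. Over the input, 1 member was higher and 0 lower, against 5.45% and 2.79% of all genes. The bead control against the input gave 0 higher and 0 lower members, against 0.815% and 0.303%. At an unadjusted p under 0.05, edgeR passed 1 member in each Roquin comparison, which was Irf4, and 0 in the bead control against the input. Of all genes tested, 10.1% passed at that p in Roquin IP over the bead control and 22.8% over the input. In the bead control against the input 20.4% did. DESeq2 likewise called 1 member higher and 0 lower in each Roquin comparison. Of all genes it called 471 higher and 4 lower over the bead control, and 706 and 522 over the input. Among the other 7 members the median log2 fold change was -0.27 over the bead control and -0.38 over the input, beside -0.12 and -0.01 for all genes tested. Scaling by library size alone moved the median of all genes to -0.96 and -0.76 and that of the other 7 members to -1.09 and -1.10. Under that scaling 3 members were called lower than the bead control (Irf5, Irf8 and Irf9) and 3 lower than the input (Irf2, Irf3 and Irf9), where 38.6% and 27.8% of all genes were called lower, and Irf4 stayed higher at 6.41 and 5.46.

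Irf5 and Irf8 were the abundant members. Irf5, which drives inflammatory cytokine genes downstream of Toll-like receptors, had 306, 987 and 1375 reads in Roquin IP, 596, 901 and 1721 in the bead control, and 289, 257 and 284 in the input. These counts corresponded to 124.6 to 132.8 CPM in Roquin IP, 147.7 to 181.2 in the bead control and 101.4 to 140.6 in the input. All 3 Roquin IP libraries lay below all of the bead control, which held for 8% of all genes, and within the range of the input. The log2 fold change of Irf5 over the bead control was -0.39 (interval -0.92 to 0.14, edgeR adjusted p = 0.669), and over the input it was 0.10 (-0.43 to 0.63, adjusted p = 0.854). In the bead control, Irf5 lay above all input libraries, as did 12.2% of all genes, without passing the test (log2 0.49, edgeR adjusted p = 0.282). No member lay below all input libraries in the bead control, as 10.8% of all genes did.

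Irf8, the myeloid lineage factor and the closest relative of Irf4 in the family, was also abundant in all 3 groups. Its level was 142.3, 94.8 and 78.9 CPM in Roquin IP 1, 2 and 3, from 340, 751 and 817 reads. The bead control held 178.8, 144.0 and 95.5 CPM, and the input 128.5, 98.7 and 78.2. The 3 groups overlapped, with the highest library in the bead control and the lowest in the input. In each of the 3 same-numbered pairs Irf8 was lower in Roquin IP than in the bead control. The log2 fold change was -0.41 over the bead control (interval -1.10 to 0.28, edgeR adjusted p = 0.742) and 0.04 over the input (-0.65 to 0.74, adjusted p = 0.960). The upper bounds of these intervals are a 1.22-fold and a 1.66-fold enrichment, against lower bounds of 60.6-fold and 29.2-fold for Irf4.

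Irf3 and Irf7, the members that carry nucleic acid and LPS signals to interferon genes, were at lower levels. Irf3 had 18, 84 and 155 reads in Roquin IP, or 7.54 to 15.0 CPM, against 6.38 to 20.2 CPM in the bead control and 12.9 to 29.7 in the input. Its log2 fold change was -0.29 over the bead control (interval -1.28 to 0.71, edgeR adjusted p = 0.889) and -0.78 over the input (-1.80 to 0.23, 0.356). Irf7, which is itself induced by interferon, ranged from 11.1 to 29.3 CPM in Roquin IP, 12.3 to 26.8 in the bead control and 11.4 to 31.7 in the input. Its groups overlapped throughout, at log2 0.05 over the bead control (interval -0.92 to 1.02, edgeR adjusted p = 0.98) and -0.26 over the input (-1.24 to 0.73, 0.788).

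Irf9, the DNA-binding subunit of the interferon-response complex, was at 24.7 ± 7.00 CPM in Roquin IP, 30.2 ± 4.85 in the bead control and 32.6 ± 7.90 in the input (SD, n = 3 each). Its log2 fold changes in Roquin IP were -0.27 (interval -0.96 to 0.41) and -0.38 (-1.08 to 0.32) over the bead control and input. Irf2, the competitor of IRF1, was at 15.0 ± 4.11, 15.3 ± 2.87 and 23.7 ± 6.62 CPM in Roquin IP, the bead control and input, with log2 fold changes of -0.02 (-0.79 to 0.75) and -0.65 (-1.43 to 0.12). Irf1, an early activator induced by interferon and inflammatory signals, had the widest intervals among the members outside Irf4. It had 26, 58 and 105 reads in Roquin IP, 6, 38 and 103 in the bead control and 58, 14 and 15 in the input. Most of the input reads of Irf1 came from input 1, at 23.6 CPM against 5.53 and 7.43 in inputs 2 and 3. Its log2 fold change was 0.59 over the bead control (interval -0.70 to 1.88, edgeR adjusted p = 0.804) and -0.38 over the input (-1.68 to 0.92, 0.758), so a 3.68-fold enrichment over the bead control lies within the interval.

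**Figure D2:**
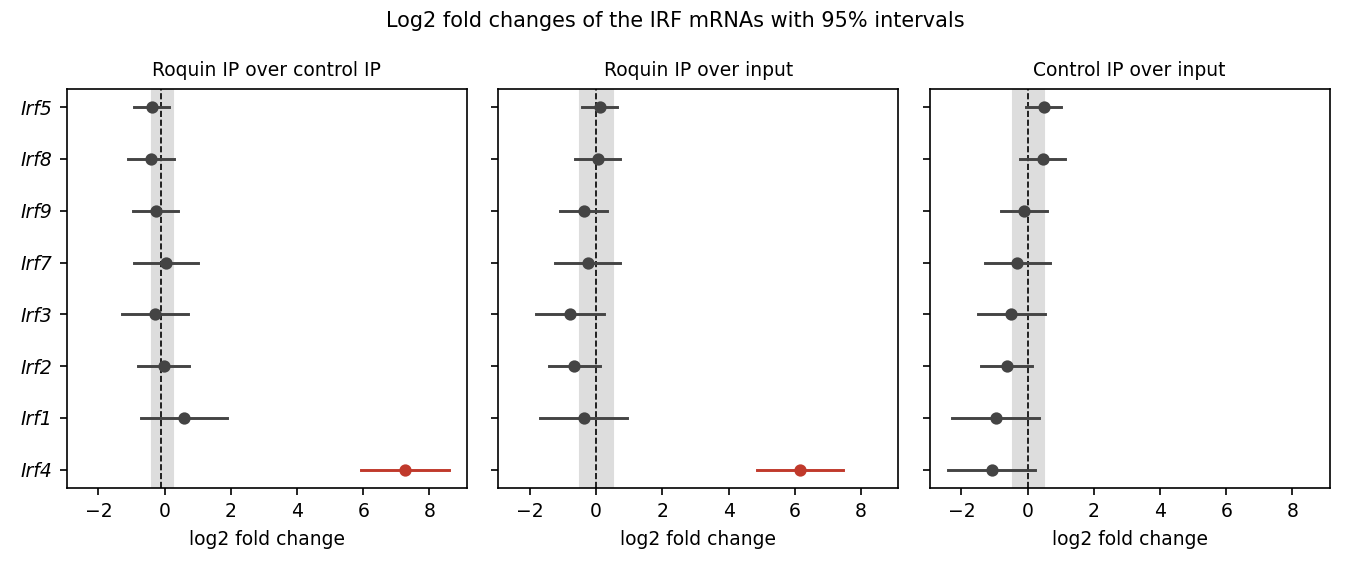
Log2 fold changes of the 8 IRF mRNAs in the 3 comparisons, from edgeR; points are estimates, lines are 95% intervals, the dashed line is the median and the grey band the interquartile range of all 9567 genes tested, and red marks an adjusted p under 0.05. Irf4 stands at 7.25 and 6.16 in the comparisons with Roquin IP and at -1.09 between the bead control and input, while the intervals of the other 7 members include 0.

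The make-up of the IRF reads needs no scaling between libraries. Irf4 made up 50.9% of the reads of the 8 genes in Roquin IP 1, 48.3% in Roquin IP 2 and 61.4% in Roquin IP 3, with Wilson 95% intervals of 48.6% to 53.3%, 46.8% to 49.8% and 60.3% to 62.5%. In the bead control its share was 0.0683%, 0.590% and 1.09%. In the input it was 0.844%, 0.834% and 3.00%, with an interval of 1.97% to 4.54% for the last. Irf5 and Irf8 together made up most of the other reads: Irf5 held 42.8% ± 1.89 in the bead control and 35.6% ± 5.04 in the input, and Irf8 held 34.8% ± 6.11 and 30.2% ± 6.67 (SD, n = 3 each). The Wilson intervals treat reads as independent, so they are too narrow where several reads are PCR copies of the same molecule. They also leave out the spread between libraries: the interval of Roquin IP 3 lay above those of Roquin IP 1 and 2.

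Set against each other member within the same library, Irf4 gained in Roquin IP over all 7. With 0.5 added to both counts, the log2 ratio of Irf4 to Irf5 was 1.49 ± 0.36 in Roquin IP, -6.70 ± 1.73 in the bead control and -4.71 ± 0.86 in the input (n = 3 each, SD). The log2 ratio of Irf4 to Irf8 was 1.82 ± 0.67, -6.39 ± 2.02 and -4.46 ± 1.36 in the same order. Across the 7 members the difference between Roquin IP and the bead control in this log2 ratio was 6.93 (Irf1) to 8.22 (Irf8), and against the input it was 6.20 (Irf5) to 7.08 (Irf3). Single libraries moved these differences: they were 6.61 to 7.55 without bead control 1, 6.95 to 8.57 without bead control 2 and 7.13 to 9.07 without bead control 3. Against the input they were 5.61 to 6.71 without input 1 and 6.69 to 7.93 without input 3. In each of these 14 comparisons the 3 Roquin IP libraries lay above all 3 others, which gives p = 0.1 in the two-sided exact permutation test, the smallest that 3 libraries against 3 allow, and an adjusted p of 0.1 over the 14.

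**Figure D3:**
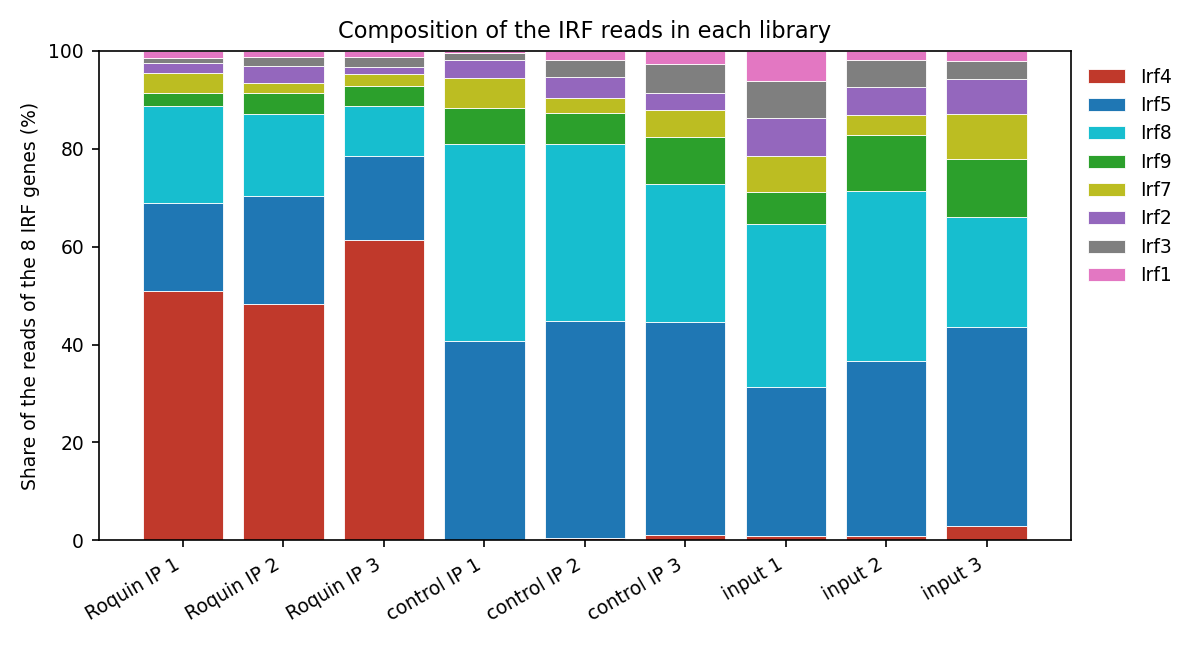
Share of each gene in the summed reads of the 8 IRF genes, in percent, for each of the 9 libraries. Irf4 takes 48.3% to 61.4% of the bar in Roquin IP and at most 3.00% in the bead control and input, where Irf5 and Irf8 fill most of it.

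Per kilobase of the longest annotated transcript, Irf4 was the lowest of the 8 members in the lysate. The input level was 53.5 ± 8.78 CPM per kilobase for Irf5 and 35.8 ± 8.87 for Irf8 (SD, n = 3 each). Irf9 (11.01 ± 2.67), Irf7 (10.7 ± 4.86), Irf3 (9.51 ± 4.46), Irf2 (9.48 ± 2.65) and Irf1 (5.70 ± 4.64) followed, and the ranges of these 5 overlapped. Irf4 came last at 1.12 ± 0.92, with 0.497 to 2.18 in the 3 input libraries, and the next lowest value was 2.59 for Irf1 in input 2. Irf5 and Irf8 came close to each other, the lowest value of Irf5 being 45.3 and the highest of Irf8 45.1. In Roquin IP the order changed at the ends: Irf4 was first at 78.0 ± 21.5 CPM per kilobase, ahead of Irf5 at 57.3 ± 1.85 and Irf8 at 37.0 ± 11.6. With the median in place of the longest transcript length Irf2 reached 43.0 and Irf3 22.2 CPM per kilobase of input, so the order of the middle members depends on the transcript model, while Irf4 stayed last at 1.12.

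A mean input level within 2-fold of that of Irf4 (2.67 to 10.7 CPM) was held by 2226 of the genes tested. Of these, 47 (2.11%) were called higher in Roquin IP than in the bead control, and their median log2 fold change was -0.05. The mean input level of Irf4 was above that of 12.7% of the genes tested.

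**Figure D4:**
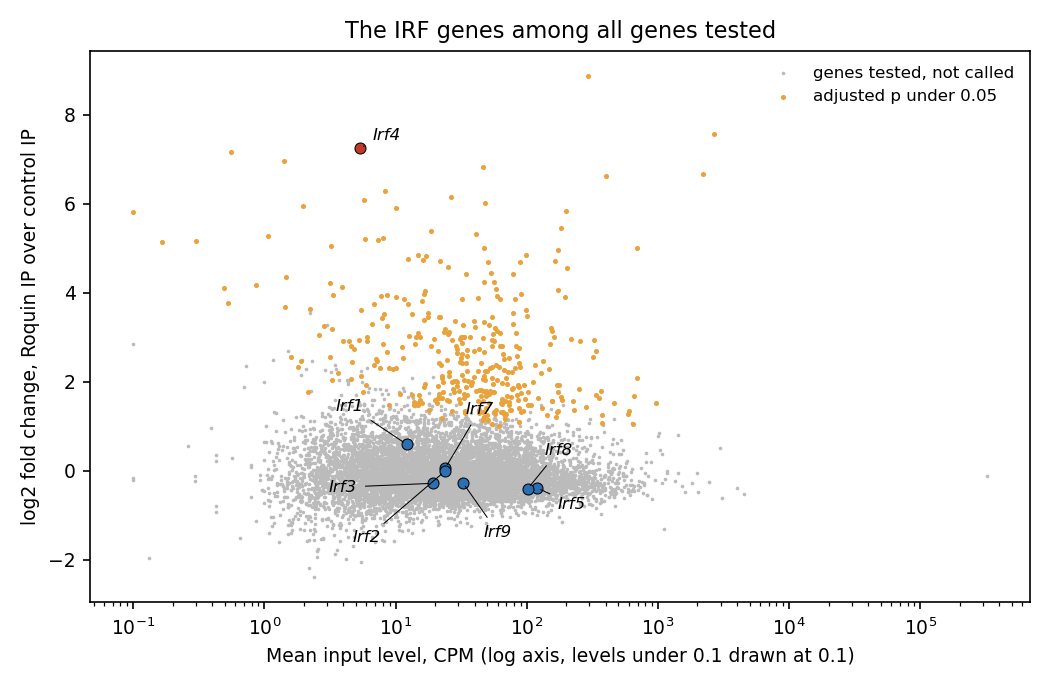
Log2 fold change of Roquin IP over the bead control against the mean input level in CPM (log axis) for all 9567 genes tested; orange points have an adjusted p under 0.05. Irf4 (red) is at an input level of 5.34 CPM and a log2 fold change of 7.25, and the other 7 members (blue) lie between -0.41 and 0.59.

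In the authors' deposited table all 8 members had the class "no CDE", that is, no predicted constitutive decay element, a stem-loop class to which Roquin binds. The authors' deposited table also gave Irf4 a Roquin IP to bead control ratio of 179.21, the third highest of 11894 finite ratios above 0, with a p-value printed as 0. For the other members the authors' deposited table gave ratios of 0.76 to 1.60, each with a p-value of 1. By the fit described here, Irf4 had the largest log2 fold change over the bead control among the 9437 genes tested that had no predicted element, 329 (3.49%) of which were called higher. Of the 37 genes tested with a conserved predicted element in the 3' UTR, 23 (62.2%) were called higher, and Nfkbid and Tnf were the ones above Irf4. Of the 12 genes with a log2 fold change over 6, 8 were in the class without a predicted element. That class held 9437 of the 9567 genes tested. Another 3 were among the 37 with a conserved element in the 3' UTR, and 1 was among the 55 with an element in the coding sequence.

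The annotated mRNA of Irf4 (GRCm38 chromosome 13, 30749226 to 30766976, plus strand, 9 exons) has the longest 3' UTR of the family, 3309 bases, against 502 (Irf3) to 1519 (Irf8) in the others. Among the 1125 genes tested with a 3' UTR of 80% to 125% of that length, 72 (6.40%) were called higher over the bead control. The core of the decay element was searched on the transcript strand as TTCNNNGAA with a loop of pyrimidine, purine and pyrimidine. It occurred in 0 of the 8 longest member 3' UTRs, and in 12.05% of the 2216 annotated 3' UTRs near the Irf4 length. When every annotated transcript was searched, Irf2 had the core once and the other 7 members did not have it. With any 3-base loop, TTCNNNGAA occurred once in the 3' UTR of Irf4 and once in that of Irf1, and in 68.8% of 3' UTRs near the Irf4 length. The following sites are shown to set the Irf4 match beside the elements of Tnf and Nfkbid, a nuclear regulator of NF-kappaB, with the TTCNNNGAA match in capitals (GENCODE M21 transcripts, GRCm38, 5′ to 3′).
Irf4 3' UTR, chr13:30764683-30764705, plus strand: acattctTTCACAGAAtcccaaa
Tnf 3' UTR, chr17:35199581-35199603, minus strand: acatgttTTCTGTGAAaacggag
Nfkbid 3' UTR, first site, chr7:30428398-30428420, plus strand: aggtgatTTCTGTGAAatcgagc
Nfkbid 3' UTR, second site, chr7:30428426-30428448, plus strand: tgattgtTTCTGTGAAacactct

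The Irf4 match has the loop ACA, which is purine, pyrimidine and purine, and its stem stops after 3 pairs. The Tnf and Nfkbid sites share the loop TGT and have 7, 7 and 6 stacked pairs when G-U pairs are allowed. Folded alone with RNAfold, the 23 bases of the Irf4 site had a minimum free energy of -1.0 kcal/mol, against -4.50 for Tnf and -4.0 and -4.80 for the Nfkbid sites. The predicted fold held the TGT loop at both Nfkbid sites, while at the Irf4 and Tnf sites it was another stem, so the energies of these sites are not those of the stems described. A wider search allowed any stem of 5 or more pairs around a pyrimidine, purine, pyrimidine loop and was chosen after the counts of Irf4 were known. Like the search for TTCNNNGAA, it took only loops of 3 bases, so stem-loops with loops of other lengths were not searched. It found, by sequence, 7 hairpins in the 3' UTR of Irf4, 1 each in those of Irf1 and Irf2 and 0 in the other 5 members. Folded alone, the Irf4 matches with loops starting at bases 1673, 1698 and 2462 took the hairpin found. Those at 733 and 1363 had no predicted structure. The match at 1356 folded with a wider loop (-1.20 kcal/mol) and overlaps that at 1363, and the match at 1855 took another fold (-0.50 kcal/mol). The Irf4 3' UTR is also the longest, and among 3' UTRs near its length the median was 3 hairpins and 9.39% held 7 or more. The longest Irf4 stems had 7 pairs, and 44.6% of those 3' UTRs held a stem of 7 or more. The hairpin with the lowest folding energy in the Irf4 3' UTR (-6.50 kcal/mol alone) is shown with its loop in capitals, in exon 9, with the loop starting at base 1698 of the 3' UTR.
Irf4 3' UTR hairpin, chr13:30765358-30765374, plus strand: tggggtaTATtatccca

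The members shared only short runs of identical sequence, and how uniquely their reads were assigned was not tested. The longest identical run between protein-coding transcripts of any 2 members was 19 bases, and between Irf4 and another member 18. Exons of Irf5 shared 411 bases with Tnpo3 on the other strand, those of Irf1 135 with Gm17334, those of Irf3 88 with Bcl2l12 and those of Irf7 45 with Phrf1. Irf9 shared 123 bases with Rnf31 on its own strand. Since the sources used here leave the handling of strand unnamed, reads in these stretches are uncertain, while the exons of Irf4, Irf2 and Irf8 overlapped no other annotated protein-coding gene.

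The 5 genes whose profile over the 9 libraries was most like that of Irf4 were Slc39a14, a zinc transporter gene, Socs1, an inhibitor of cytokine receptor signalling, Ptpre, a tyrosine phosphatase gene, Ccl4, a chemokine gene, and Rc3h1, which encodes Roquin-1. Likeness was the root mean square difference of log2 CPM after centring each gene on its mean, and it was 0.78, 0.88, 0.97, 0.97 and 0.97 for these genes in that order, against a median of 3.44 over all genes tested. Among the other members the distance from Irf4 was 3.17 for Irf1 and 3.45 to 3.58 for the rest. Slc39a14 was at 962.9 to 2385 CPM in Roquin IP and 7.90 to 34.7 in the bead control. Ptpre was at 0.608 to 5.58 CPM in the bead control and 1.63 to 10.4 in the input, with 115.7 to 166.2 in Roquin IP. Of the 5, Rc3h1 had a conserved predicted element in the 3' UTR, and the other 4 were in the class without one.

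**Figure D5:**
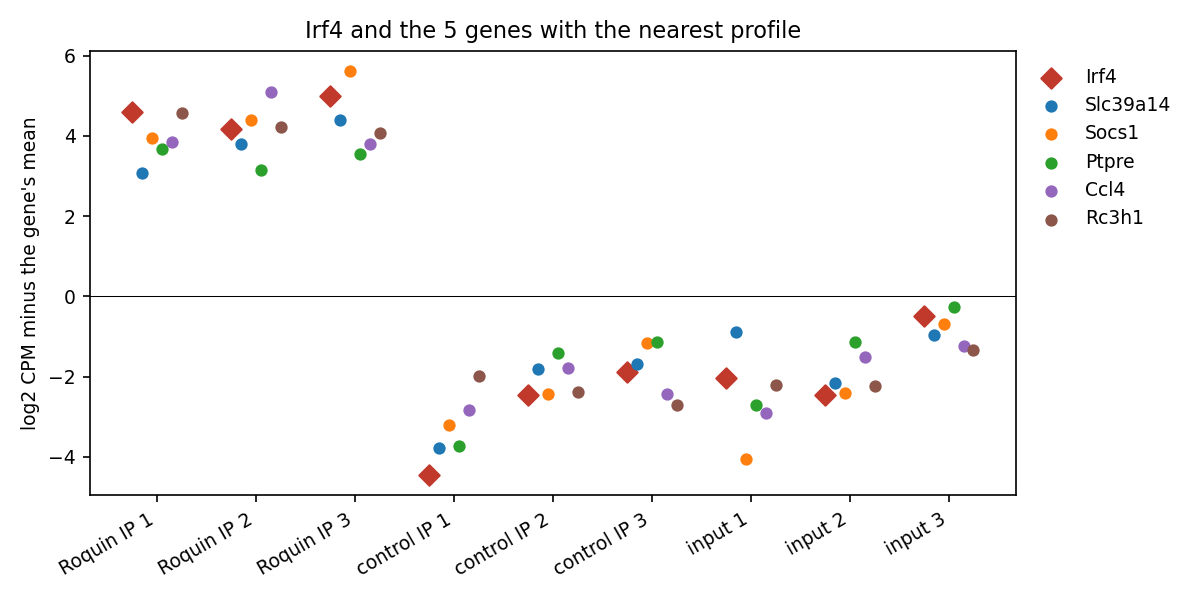
Log2 CPM minus the mean of the gene over the 9 libraries for Irf4 (red diamonds) and the 5 genes nearest to it. All 6 genes lie above their means in Roquin IP and below them in the bead control and input, and outside Roquin IP all but Slc39a14 are highest in input 3.

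Other genes of the pathway were taken from 6 lists. Of their 82 genes, 58 were tested, and 1 was higher in Roquin IP than in the bead control and 0 lower by edgeR, with 5 at an unadjusted p under 0.05. These are 1.72% called higher, against 3.76% of all genes, and 8.62% at the unadjusted p, against 10.1% of all genes. DESeq2 gave the same numbers, 1 and 0, and blocking on the replicate number gave 3 and 0, or 5.17% higher against 5.52% of all genes. The one gene was Socs1, on the list of IRF targets, at 96.7, 130.4 and 307.4 CPM in Roquin IP against 0.304, 0.783 and 2.40 in the bead control (log2 6.95, edgeR adjusted p = 2.25e-05). The blocked fit added Traf3, an adaptor upstream of IRF3 and IRF7 (log2 0.95, edgeR adjusted p = 0.0396), and Kdm6b, a histone demethylase gene upstream of Irf4 in macrophages (0.96, 0.0336). Without the block they were at 1.02 (adjusted p = 0.184) and 1.02 (0.317).

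Over the input 3 of the 58 were higher and 5 lower, with 5 and 9 in the blocked fit. The shares were 5.17% and 8.62%, against 5.45% and 2.79% of all genes, and 8.62% and 15.5% with the block, against 9.99% and 8.04%. Socs1 (log2 7.07), Kdm6b (1.75, edgeR adjusted p = 0.0149) and Traf3 (1.46, 0.0197) were the higher ones. The input held 0, 2 and 7 reads of Socs1, so the size of its fold over the input is uncertain. The lower ones were Ikbke, a kinase of IRF3 and IRF7 (log2 -1.58, edgeR adjusted p = 0.00454), the interferon receptor kinase gene Jak1 (-1.05, 0.0216), the phosphatase genes Ptpn2 (-1.48, 0.0109) and Ptpn6 (-1.03, 0.0249), and Ifit1, an antiviral gene (-1.48, 0.0443). Over the bead control these 5 did not pass, at log2 -0.57, -0.43, -0.36, -0.26 and -0.00243. In the bead control over the input the same 5 were at log2 -1.01, -0.63, -1.12, -0.77 and -1.48. They did not pass there by edgeR, while DESeq2 and the blocked fit each called Ikbke, Ptpn2, Ptpn6 and Ifit1 lower. Leaving out single libraries ended the Roquin IP calls over the input of Kdm6b, Traf3, Jak1, Ptpn2, Ptpn6 and Ifit1. Their edgeR adjusted p was then up to 0.0823, 0.116, 0.119, 0.0686, 0.120 and 0.202. The calls of Kdm6b and Traf3 also ended with library size alone (0.0573 and 0.139).

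By list, the 18 upstream activators and adaptors, all tested, had a median log2 fold change over the bead control of -0.14. The JAK-STAT partners (10 of 10 tested) had a median of -0.02, the IRF targets (14 of 20 tested) 0.07, and the DNA-binding partners and IRF2-binding proteins (7 of 14 tested) -0.34. Of the 8 interferons and their receptors 5 were tested, with a median of 0.21, and Ifna2, Ifna4 and Ifng had 0 counts in every library. Ifnb1, the interferon that IRF3 induces after LPS, had 59 reads in Roquin IP, 64 in the bead control and 21 in the input (log2 -0.19 over the bead control, edgeR adjusted p = 0.949). Of the 13 genes tied to IRF4 in lymphocytes and alternatively activated macrophages 4 were tested, with a median of 0.05. Besides Kdm6b they were Bcl6, Xbp1 and Myc, at log2 -0.16, 0.20 and -0.11 over the bead control, none of them called. Bcl6 had 1019 reads in Roquin IP, 1001 in the bead control and 487 in the input. Xbp1 had 1042, 855 and 391, and Myc 2010, 1782 and 723. Prdm1, Arg1, Retnla and Mrc1, from the same list, were too low to test. Of these 4, Prdm1 had the most reads, with 7 in Roquin IP, 3 in the bead control and 0 in the input.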

How the data were processed

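RNA was measured in 9 libraries of RAW264.7 cells, and the authors' deposited table holds raw read counts per gene, per the file headers. The submitters' processing notes name CASAVA 1.8.2, BWA and DESeq 1.8.3. The sources used here name no build, annotation or strand setting. The deposited Roquin IP to control IP ratio has a header naming log2 but holds linear values, and the deposited p-value column does not say whether it is adjusted. The design text calls the replicates biological.

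Counts were fitted in edgeR 4.0.16 (R 4.3.3; TMM factors, filterByExpr with a minimum count of 10, all 9 libraries, group as the only term), and p-values were adjusted by Benjamini-Hochberg over the 9567 genes tested, with calls at 0.05. DESeq2 1.42.0 was an alternative. On simulated counts for Roquin IP over control IP, 84% of 4-fold and 98% of 8-fold changes were recovered, with 7 false calls among 9361 genes. The simulation drew each library independently and set each gene at its mean level over all 9 libraries. Its rates may therefore differ from those in these data. No libraries were duplicates (chi-square per degree of freedom 14.7 to 122.2). Same-numbered libraries deviated together (r across genes 0.152 to 0.580 in all 9 pairs), so the replicate numbers were taken to pair the libraries. The main fit did not use this pairing, and a block on the replicate number was an alternative. With the block, 528 genes were called higher than control IP, against 360 in the main fit. Over the input, 956 were called higher with the block, against 521. Sites were searched in GENCODE M21 transcripts (GRCm38) with Python 3.11.15 and folded with ViennaRNA 2.7.2. The members and lists were chosen with earlier results of these data known. Outside the members, genes of the lists were named by the smallest adjusted p (at most 3 per list and Roquin comparison). Others were named by likeness to Irf4, as markers, as reference genes, or as overlapping genes. Ifnb1, Bcl6, Xbp1, Myc, Prdm1, Arg1, Retnla and Mrc1 were named after their values were seen. Some genes of the lists are not reported here.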

Additional observations from a re-analysis of the deposited data

How the results depend on the processing

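Irf4 was called higher in Roquin IP in all 13 alternatives of both comparisons, at log2 6.41 to 7.95 over control IP (adjusted p up to 8.85e-05) and 5.46 to 7.05 over the input (up to 0.00046). No other member was called higher in any of them. The replicate block, with Irf4 at 7.40 and 6.26, changed no call of a member. Few reads of Irf4 outside Roquin IP limit the size of its fold, and the low counts of Irf1 and Irf3 limit theirs.

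The sign of members near 0 was not stable, and the cause was not tested. Over control IP, Irf2 was at 0.00196 with RLE factors, 0.00248 with DESeq2 and 0.0379 with only the 6 libraries compared, and library size alone gave -0.27 for Irf1 and -0.75 for Irf7. Over the input, library size alone gave -0.64 for Irf5 and -0.73 for Irf8. With 1 library left out, the values over control IP ran from -0.26 to 0.17 for Irf2, -0.60 to 0.13 for Irf3 and -0.29 to 0.35 for Irf7. Over the input they ran from -0.73 to 0.54 for Irf1, -0.00444 to 0.24 for Irf5, -0.60 to 0.0463 for Irf7 and -0.23 to 0.25 for Irf8. In control IP over the input, Irf9 ran from -0.27 to 0.0424. None of these values was called.

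Of all genes, 0 were lower than control IP by edgeR (204 at an unadjusted p under 0.05), against 3694 with library size alone, 21 with no filter, 4 with DESeq2, 11 with the block and 0 to 3 with 1 library left out. Library size alone called 3 members lower in each Roquin comparison. Over the input, library size alone gave 259 genes higher and 2659 lower and the block 956 and 769. Lower genes were 416 with no filter and 522 with DESeq2. With 1 library left out, 298 to 409 were higher (298 without input 2) and 30 to 192 lower (30 without Roquin IP 1). In control IP over the input, 335 genes were higher and 229 lower with no filter, 372 and 354 with DESeq2, 636 and 553 with the block, 2 and 1 with only the 6 libraries compared, and 0 to 188 and 0 to 88 with 1 library left out, while library size alone gave 10 lower. With only these 6 libraries Irf4 fell under the count filter and gave no value.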
